A study of Homo sapiens with 8 samples.

Results

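The 31 genes described here build cholesterol and fatty acids or regulate that synthesis. They were chosen by symbol for these roles with earlier results of these data known, so their shares beside all genes are descriptions only. They cover the mevalonate arm (ACAT2, HMGCS1, MVK, PMVK, MVD, IDI1, FDPS), the steps from squalene to lanosterol (FDFT1, SQLE, LSS), the steps from lanosterol to cholesterol (CYP51A1, TM7SF2, MSMO1, NSDHL, HSD17B7, EBP, SC5D, DHCR7), sterol sensing and transport (SREBF1, SREBF2, INSIG1, INSIG2, SCAP, STARD4) and fatty acid synthesis (ACLY, ACACA, FASN, ELOVL6, SCD, FADS1, FADS2). Values could be assigned to 30 of the 31, among 18143 gene labels that could be assigned of 63967 in the table, and ACACA, which makes malonyl-CoA, was not analysed here. RNA-seq had been done on Raji, a rituximab-sensitive Burkitt lymphoma line, and on Raji-4RH, a rituximab-resistant line that was derived from Raji by repeated rituximab exposure. The cells were exposed to DMSO, the vehicle, or to 3 μM chidamide, a benzamide inhibitor of histone deacetylases, for 24 h, at 2 to 3 passages, and were collected by flow sorting. Each of the 4 groups (Raji DMSO, Raji chidamide, Raji-4RH DMSO and Raji-4RH chidamide) had 2 libraries. Nothing in the sources used here says that the 2 libraries of a group came from separate cultures, or whether Raji-4RH is 1 clone, so p-values measure only the spread between these samples, which may be technical.

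Cholesterol is made from acetyl-CoA, which passes through mevalonate, farnesyl diphosphate, squalene and lanosterol before the last steps trim and reduce the sterol ring. SREBP proteins, encoded by SREBF1 and SREBF2, are carried by SCAP to the Golgi when membrane sterol is low, are cleaved there and then activate most genes of the pathway, and INSIG1 and INSIG2 hold SCAP in the endoplasmic reticulum when sterol is plentiful. The SREBF1 product is best known for fatty acid genes and the SREBF2 product for cholesterol genes, and dividing B cells use both lipids for membranes.

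Regulatory sequence that SREBP is known to read, the sterol regulatory element, is often found beside a Y box, the binding sequence of NF-Y. To show what the start regions of these genes hold, the 250 bases before the gene start were taken from RefSeq (GRCh38.p14) for 27 of the 31 genes (not for FDFT1, SQLE, ACAT2 and FASN), and both strands were searched for the sterol element TCACNCCAC, for its looser form CACNCCAC (which lies inside the longer one), for the Y box CCAAT, for the GC box GGGCGG, which Sp1 reads, and for the E box CACGTG, to which SREBP also binds. For IDI1 the RefSeq start lay 7534 bases from the nearest start of the gene in GENCODE v29, for PMVK 272, for FADS1 159 and for SCD 109. In 24 of the 27 genes the bases just after the start matched a v29 transcript of the gene, and all 27 were kept. TCACNCCAC was in 1 of the 27 windows (3.7%) and in 0.875% of all 27305 windows of that length, and CACNCCAC was in 3 (11.1%) and in 4.72%, or 0.918% and 4.6% of the windows whose gene was tested here. CCAAT was in 17 of the 27 windows (63.0%) and in 33.0% of all windows, or 35.9% of the 8387 tested. GGGCGG was in 25 (92.6%) and in 42.3% of all windows, or 67.9% of those tested, and CACGTG was in 3 (11.1%) and in 6.49% of all windows, or 9.0% of those tested. These matches are descriptions of the letters and not of binding. CCAAT matches also lay in genes that were lower under chidamide in Raji-4RH (5 each in NSDHL and MVK, 3 each in FDPS and EBP). Of these, MVK was higher in Raji. IDI1, INSIG2, SREBF1 and SCAP, which were higher in Raji, had none.
The windows with a sterol element were those of SREBF2, INSIG1 and SCD. By GENCODE v29 the SREBF2 window lies wholly in annotated exons, and the SCD element crosses the start of SCD at chr10:100347124. The stretches are not cut to exon-free bases. Each is shown with 10 bases on either side and the element in capitals, which in INSIG1 and SCD reads on the opposite strand:
SREBF2, chr22:41832962-41832990, plus strand: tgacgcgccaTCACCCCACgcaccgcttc
INSIG1, chr7:155297660-155297687, plus strand: cgggccggcgGTGGCGTGtgcgcacgtc
SCD, chr10:100347109-100347136, plus strand: cagaggccggGTGGTGTGgtgtcggtgt
Start regions of 4 genes that were higher under chidamide in Raji, and of which MVD, MSMO1 and STARD4 were higher in both lines, are shown next, cut to the stretch that holds no annotated exon in GENCODE v29, with each Y box on either strand in capitals:
MVD, chr16:88663162-88663297, minus strand, bases 206 to 71 before the start: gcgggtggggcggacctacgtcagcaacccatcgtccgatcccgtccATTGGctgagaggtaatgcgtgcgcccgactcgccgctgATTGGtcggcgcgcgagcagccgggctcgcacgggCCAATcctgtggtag
LSS, chr21:46228825-46229024, minus strand, bases 250 to 51 before the start: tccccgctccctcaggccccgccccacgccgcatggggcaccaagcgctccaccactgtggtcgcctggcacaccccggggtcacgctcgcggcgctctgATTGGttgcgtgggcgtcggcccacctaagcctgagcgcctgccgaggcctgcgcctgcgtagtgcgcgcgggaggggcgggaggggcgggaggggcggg
MSMO1, chr4:165327419-165327622, plus strand, bases 250 to 47 before the start: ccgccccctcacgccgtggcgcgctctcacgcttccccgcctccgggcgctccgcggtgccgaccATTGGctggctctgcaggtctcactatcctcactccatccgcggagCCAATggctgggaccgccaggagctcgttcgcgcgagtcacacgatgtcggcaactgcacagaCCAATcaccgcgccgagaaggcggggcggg
STARD4, chr5:111512591-111512785, minus strand, bases 250 to 56 before the start: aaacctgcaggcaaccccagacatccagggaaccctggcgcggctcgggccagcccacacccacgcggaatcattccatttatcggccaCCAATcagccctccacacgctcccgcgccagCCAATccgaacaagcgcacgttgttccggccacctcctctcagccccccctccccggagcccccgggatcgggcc

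The libraries held between 13991697 and 21193441 reads, with the lowest total in Raji-4RH chidamide replicate 1. The authors had deposited FPKM, the reads of a gene divided by its length and by the library total, and 100% of the values multiplied back to whole reads within 0.02 of a read. Labels and values were out of step in the table: 13 of the 30 genes had their values on the row of their label and 17 had them between 1 and 14 rows lower, by a fixed list of row distances. In the 7 blocks of rows that hold the 30 genes, the area under the curve that separates families usually expressed from families usually silent was between 0.918 and 0.956 at the listed distance and at most 0.745 at any of the other 20 distances tried. The 0.745 was in the block of INSIG1, where the check rests on only 6 usually expressed genes against 109 usually silent ones. ELOVL6 and TM7SF2 lie 9 and 14 labels from the end of their block, so their assignment rests on where that block ends. All 7 B-cell markers tried were present (their summed level was between 1320 and 2290 FPKM), while 3 T-cell markers summed to at most 4.83, 3 myeloid markers to at most 7.92, 3 epithelial markers to at most 0.478 and 3 fibroblast markers to at most 2.34 FPKM. The 2 Raji-4RH chidamide libraries stood further apart than the others: over the 30 genes the SD of the log2 difference between replicates was 0.2 there and between 0.0547 and 0.113 in the other groups. Differences were tested with limma on log2(FPKM + 1) in 1 fit over the 8 libraries for the 10710 genes that reached 1 FPKM in 2 or more libraries, and a gene was called at a Benjamini-Hochberg adjusted p under 0.05. All 30 genes passed that filter. Fold changes given as log2 are on the log2(FPKM + 1) scale, which understates the change of low genes. Values after ± are the standard error (SE) of the fit. This SE pools the spread of all 4 groups, so it does not measure that of the 2 groups compared. Libraries outside a comparison therefore also shape its SE and its calls. With 2 libraries against 2, an exact permutation test of 1 gene cannot go below p = 0.333.

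By level, the most abundant of the 30 was SCD, which makes monounsaturated fatty acids, with a mean of 175 FPKM over the 8 libraries. ACLY, which supplies cytosolic acetyl-CoA, followed at 106, FASN, which makes palmitate, at 104 and SREBF2 at 97.6 FPKM. The lowest means were those of FADS1 (1.223 FPKM) and FADS2 (2.08), desaturases for polyunsaturated fatty acids, then CYP51A1, the lanosterol demethylase (2.39), and INSIG2 (3.60). These means pool groups that differ, and the order changes with the line: FADS2 was the lowest of the 30 in Raji but lay above CYP51A1 in Raji-4RH, where FADS1 was the lowest, and FASN fell below HMGCS1, FDFT1 and SQLE in Raji-4RH chidamide. FADS1 rested on 8 to 551 reads per library and FADS2 on 52 to 1077. Other annotated genes share 83.2% of the exon bases of CYP51A1 (among them CYP51A1-AS1), 52.3% of ACAT2 (among them TCP1 and SOD2), 18.6% of FDPS, 15% of HMGCS1 and 14.8% of IDI1. Strand was not stated for the counting, so reads in those bases cannot be told apart. The levels of these 5 genes, and their changes between groups, are therefore uncertain.

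**Figure D1:**
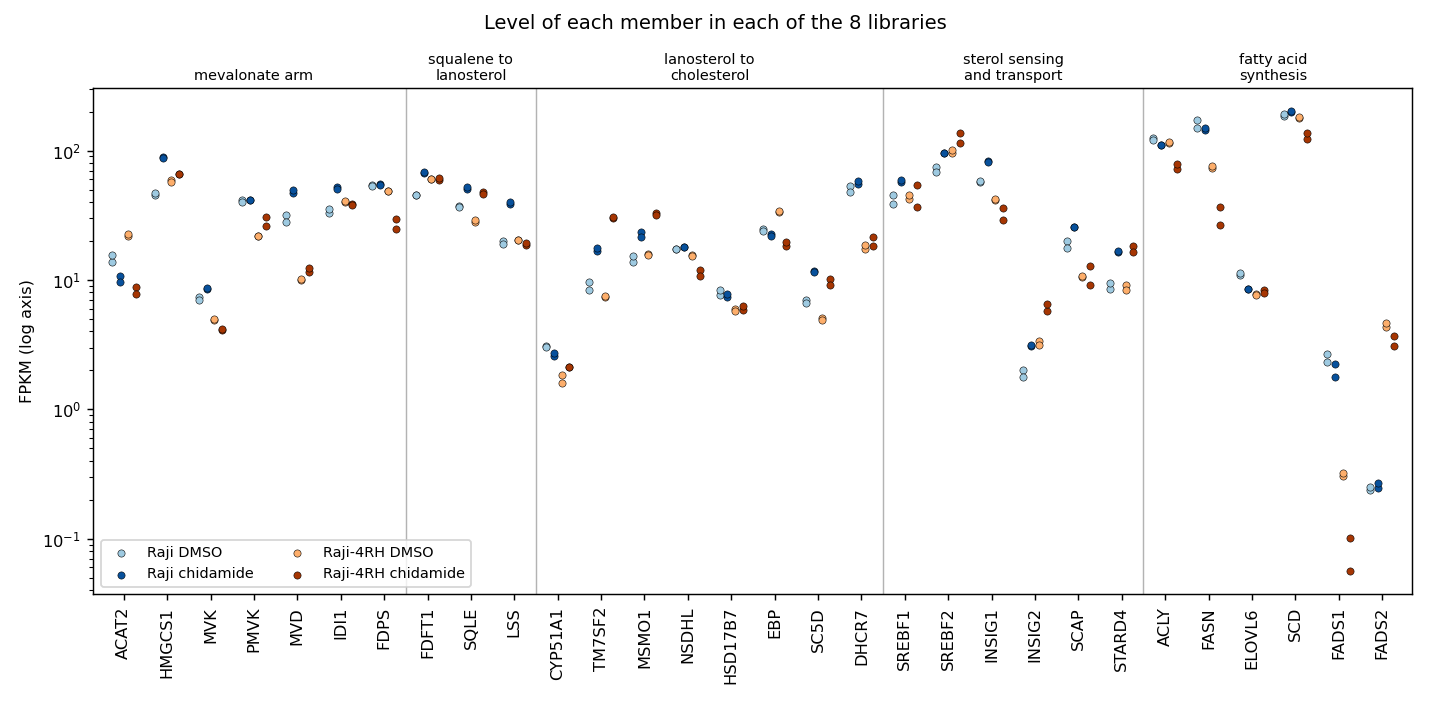
FPKM (log axis) of each of the 30 genes in each of the 8 libraries, ordered by role, with 2 points per group. SCD stands highest in each library, FADS2 stands lowest in the Raji libraries and FADS1 in the Raji-4RH libraries.

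Chidamide against DMSO in Raji, the sensitive line, asked what the inhibitor does to these genes where rituximab still works. Of the 30 genes 16 were higher, 3 were lower and 11 were not called. That is 53.3% higher and 10.0% lower, while over all genes tested 31.5% were higher and 28.5% lower (60% called in all). The median log2 change of the 30 was 0.32, and that of all genes tested was 0.02. The role groups were made after the values had been seen, so counts by role here and below are descriptions only. All 6 genes of sterol sensing and transport and all 3 from squalene to lanosterol were higher, as were 4 of the 7 of the mevalonate arm and 3 of the 8 from lanosterol to cholesterol, while of the 6 fatty acid genes none was higher and 2 were lower. Under quantile normalization SCD was called higher (0.25) and CYP51A1 lower (-0.32), and under median centring 3 fatty acid genes were lower and the 30 genes split into 16 higher and 6 lower, with ACLY (-0.19), EBP (-0.16) and CYP51A1 (-0.19) the added falls. In bulk RNA, fewer cells of a kind and less RNA per cell cannot be told apart, and all values are relative to the library total.

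The largest rise in Raji was that of LSS, which closes squalene epoxide into lanosterol. LSS was at 20.1 and 19 FPKM in Raji DMSO, 38.4 and 40.3 in Raji chidamide, 20.3 and 20.2 in Raji-4RH DMSO, and 18.6 and 19.2 in Raji-4RH chidamide. Both Raji chidamide libraries stood above 38 FPKM, 2.01-fold over the DMSO mean, while the other 6 lay between 18 and 21 FPKM. The log2 change in Raji was 0.97 ± 0.05, adjusted p = 2.40e-06. HMGCS1, which makes HMG-CoA at the entry of the pathway, was at 44.95 and 46.9 FPKM in Raji DMSO, against 88.9 and 87.2 in Raji chidamide, a 1.92-fold rise of the mean (log2 change 0.92 ± 0.05, adjusted p = 2.18e-06). TM7SF2, a sterol ring reductase that acts just after the demethylase, went from 9.70 and 8.29 FPKM in Raji DMSO to 16.8 and 17.6 FPKM in Raji chidamide (log2 change 0.87 ± 0.07, adjusted p = 2.13e-05). STARD4, which carries cholesterol between membranes, was at 8.50 and 9.41 FPKM in Raji DMSO, 16.4 and 16.8 in Raji chidamide, 9.10 and 8.43 in Raji-4RH DMSO, and 18.2 and 16.4 in Raji-4RH chidamide. Its treated libraries lay above the untreated ones in both lines without overlap, and the change in Raji was 0.82 ± 0.07, adjusted p = 3.14e-05.

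Next in size in Raji were SC5D, the lathosterol desaturase (0.69), MVD, the mevalonate diphosphate decarboxylase (0.68), MSMO1, the methylsterol oxidase (0.60), IDI1, the isopentenyl diphosphate isomerase (0.57), FDFT1, the squalene synthase (0.56), and SQLE, the squalene epoxidase (0.46). MVD was at 31.5 and 27.95 FPKM in Raji DMSO, 47.4 and 49.3 in Raji chidamide, 9.96 and 10.2 in Raji-4RH DMSO, and 11.5 and 12.4 in Raji-4RH chidamide. Its level in Raji rose 1.63-fold, and every Raji-4RH library lay below 13 FPKM while every Raji library lay above 27 FPKM. The regulators rose by similar amounts, with log2 changes of 0.51 for INSIG2, 0.50 for INSIG1, 0.47 for SREBF1, 0.43 for SCAP and 0.42 for SREBF2. SREBF2, the gene with the full sterol element shown above, was at 74.1 and 68.5 FPKM in Raji DMSO, 95.9 and 95.4 in Raji chidamide, 96.2 and 100.4 in Raji-4RH DMSO, and 114 and 136 in Raji-4RH chidamide. It lay higher in the treated than in the untreated libraries of each line. The call of SREBF1 in Raji was lost without Raji DMSO replicate 2 (0.35), Raji chidamide replicate 1 (0.49) or 2 (0.45), or either Raji-4RH DMSO library (0.47), and that of SCAP without Raji DMSO replicate 2 (0.34) or Raji chidamide replicate 1 or 2 (both 0.43). MVK, the mevalonate kinase, was higher by 0.22, a call lost without Raji chidamide replicate 2 (0.21).

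The 3 falls in Raji were those of ACAT2, ELOVL6 and FADS1. ACAT2, which condenses acetyl-CoA to acetoacetyl-CoA at the start of the mevalonate arm, was at 13.7 and 15.5 FPKM in Raji DMSO, 10.7 and 9.59 in Raji chidamide, 21.7 and 22.8 in Raji-4RH DMSO, and 8.88 and 7.77 in Raji-4RH chidamide. It was lower in the treated libraries of both lines, and in Raji the log2 change was -0.49 ± 0.09, adjusted p = 0.00136. ELOVL6, which lengthens palmitate, was at 10.9 and 11.3 FPKM in Raji DMSO, 8.48 and 8.44 in Raji chidamide, 7.76 and 7.62 in Raji-4RH DMSO, and 8.29 and 7.97 in Raji-4RH chidamide. Only the Raji DMSO pair stood above 9 FPKM, and the log2 change in Raji was -0.35 ± 0.05, adjusted p = 5.34e-04. FADS1 fell by 0.23 on the log2 scale (adjusted p = 0.0454), a call lost without Raji DMSO replicate 2 (-0.16), Raji chidamide replicate 2 (-0.12) or either Raji-4RH DMSO library (-0.23), and also with the replicate number as a block, with a mean of at least 1 FPKM required or with no filter (all -0.23), and with a pseudocount of 0.1 (-0.32). Not called in Raji, with their log2 changes, were PMVK (0.02), FDPS (0.01), CYP51A1 (-0.15), NSDHL (0.05), HSD17B7 (-0.07), EBP (-0.12), DHCR7 (0.17), FASN (-0.12), SCD (0.08), FADS2 (0.01) and ACLY (-0.14). Of these, ACLY and EBP were called lower (-0.14 and -0.12) and DHCR7 higher (0.17) when either Raji-4RH chidamide library was left out of the fit, with the same change.

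Chidamide against DMSO in Raji-4RH asked the same of the resistant line. Here 11 of the 30 genes were higher, 11 were lower and 8 were not called, so 36.7% moved each way, while over all genes tested 43.3% were higher and 31.6% lower (74.9% called in all). The median log2 change was 0.03 over the 30 and 0.09 over all genes tested. Quantile normalization moved the median of all genes tested from 0.09 to -0.02 and the share of their calls that were higher from 57.9% to 47.8%, and it left 13 of the 30 genes higher and 11 lower. Centring each library on its median gave 8 higher and 13 lower, so the even split depends on the scaling. The counts by role were as follows: of the 6 fatty acid genes 5 were lower and none was higher, and this held under quantile normalization and under median centring. Of the mevalonate arm 3 were higher and 3 lower (4 and 3 under quantile normalization, 1 and 4 under median centring), from squalene to lanosterol 1 of 3 was higher, from lanosterol to cholesterol 4 were higher and 2 lower of 8, and of sterol sensing and transport 3 were higher and 1 lower of 6.

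The largest rise in Raji-4RH was that of TM7SF2. It was at 9.70 and 8.29 FPKM in Raji DMSO, 16.8 and 17.6 in Raji chidamide, 7.42 and 7.50 in Raji-4RH DMSO, and 29.95 and 30.8 in Raji-4RH chidamide. The 2 treated Raji-4RH libraries were 4.07-fold above the untreated ones by their means and also above every Raji library (log2 change 1.89 ± 0.07, adjusted p = 1.37e-07). MSMO1 was at 13.7 and 15.3 FPKM in Raji DMSO, 23.3 and 21.5 in Raji chidamide, 15.9 and 15.7 in Raji-4RH DMSO, and 32.8 and 31.8 in Raji-4RH chidamide. Treated libraries lay above untreated ones in both lines, and in Raji-4RH the rise was 2.05-fold (log2 change 0.99 ± 0.07, adjusted p = 2.53e-06). STARD4 rose 1.97-fold (log2 change 0.90 ± 0.07, adjusted p = 7.17e-06), to the level it reached in Raji. SC5D was at 6.95 and 6.65 FPKM in Raji DMSO, 11.7 and 11.4 in Raji chidamide, 5.11 and 4.93 in Raji-4RH DMSO, and 10.2 and 9.13 in Raji-4RH chidamide, with no overlap between treated and untreated libraries of either line (log2 change in Raji-4RH 0.82 ± 0.06, adjusted p = 5.68e-06).

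INSIG2, at a low level, rose from 3.39 and 3.14 FPKM in Raji-4RH DMSO to 5.70 and 6.57 FPKM in Raji-4RH chidamide (log2 change 0.74), SQLE rose by 0.70, PMVK, the phosphomevalonate kinase, by 0.35 and SREBF2 by 0.34. Smaller rises were called for MVD (0.22), CYP51A1 (0.20) and HMGCS1 (0.17). Each of these 3 calls was lost when 1 library was left out: MVD without Raji-4RH DMSO replicate 1 (0.20) or 2 (0.24) or Raji-4RH chidamide replicate 2 (0.17), CYP51A1 without Raji-4RH DMSO replicate 2 (0.14) or Raji-4RH chidamide replicate 1 (0.20), and HMGCS1 without Raji-4RH DMSO replicate 2 (0.15). Under median centring none of the 3 was called (MVD 0.15, CYP51A1 0.12, HMGCS1 0.0903), and CYP51A1 turned to a called fall of -0.30 under quantile normalization.

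The 4 largest falls among genes of at least 5 FPKM were those of ACAT2, FASN, FDPS and EBP. ACAT2 fell 2.67-fold by its means (log2 change -1.32 ± 0.09, adjusted p = 2.08e-06). Other genes share 52.3% of its exon bases, so part of this fall may come from their reads, which was not tested. FASN was at 173 and 149 FPKM in Raji DMSO, 145 and 149 in Raji chidamide, 73.3 and 76.5 in Raji-4RH DMSO, and 26.6 and 36.8 in Raji-4RH chidamide. The treated Raji-4RH libraries were the lowest of the 8, although they differed from each other by more than 10 FPKM (log2 change -1.23 ± 0.13, adjusted p = 4.46e-05). FDPS, the farnesyl diphosphate synthase that also feeds protein prenylation, was at 54.6 and 53.6 FPKM in Raji DMSO, 55.1 and 54.1 in Raji chidamide, 48.5 and 48.5 in Raji-4RH DMSO, and 29.4 and 24.9 in Raji-4RH chidamide. The 6 other libraries lay between 48 and 56 FPKM, and the treated Raji-4RH libraries at or below 30 FPKM (log2 change -0.82 ± 0.07, adjusted p = 1.35e-05). EBP, the sterol isomerase, was at 24.8 and 24.1 FPKM in Raji DMSO, 22.8 and 21.9 in Raji chidamide, 33.5 and 33.9 in Raji-4RH DMSO, and 18.3 and 19.6 in Raji-4RH chidamide. Its highest and its lowest libraries were both Raji-4RH libraries, the untreated and the treated pair (log2 change -0.80 ± 0.05, adjusted p = 2.71e-06).

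Smaller falls in Raji-4RH were those of ACLY (-0.62), SCD (-0.47), NSDHL, a sterol dehydrogenase (-0.42), INSIG1 (-0.36), FADS2 (-0.32), FADS1 (-0.29) and MVK (-0.22). SCD, whose start region holds the looser sterol element, was at 186 and 193 FPKM in Raji DMSO, 200.1 and 202 in Raji chidamide, 179.8 and 180.4 in Raji-4RH DMSO, and 124 and 137 in Raji-4RH chidamide. The treated Raji-4RH pair lay under every other library. INSIG1, itself a well-known SREBP target, was at 57.5 and 58.4 FPKM in Raji DMSO, 82.9 and 82.1 in Raji chidamide, 41.8 and 41.97 in Raji-4RH DMSO, and 29.3 and 35.97 in Raji-4RH chidamide. It was highest in treated Raji and lowest in treated Raji-4RH, with no overlap between any of the 4 groups. Its fall in Raji-4RH was not called under quantile normalization, where no gene of sterol sensing and transport was called lower, and the fall of FADS1 was not called without Raji-4RH DMSO replicate 2 (-0.28). By its means FADS1 was 4.02-fold lower, a size that log2(FPKM + 1) understates at levels below 1 FPKM.

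Not called in Raji-4RH were IDI1 (-0.07), FDFT1 (0.01), LSS (-0.09), HSD17B7 (0.04), DHCR7 (0.14), SREBF1 (0.04), SCAP (0.02) and ELOVL6 (0.07). Under quantile normalization IDI1 (0.19), FDFT1 (0.31) and DHCR7 (0.32) were called higher, while under median centring IDI1 (-0.15) and LSS (-0.17) were called lower, so IDI1 has no stable direction here. SREBF1 was at 41.9 and 44.98 FPKM in Raji-4RH DMSO, against 36.5 and 54.2 in Raji-4RH chidamide, and SCAP was at 10.5 and 10.8 FPKM in Raji-4RH DMSO, against 9.14 and 12.7 in Raji-4RH chidamide. In both genes 1 treated library lay below and 1 above the untreated pair. Without Raji-4RH chidamide replicate 1 both were called higher (SREBF1 0.31, SCAP 0.24), and without replicate 2 both were called lower (-0.24 and -0.20), so no direction can be given for them in this line. DHCR7, which reduces the last double bond on the way to cholesterol, was called higher (0.25) without Raji-4RH chidamide replicate 1.

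**Figure D2:**
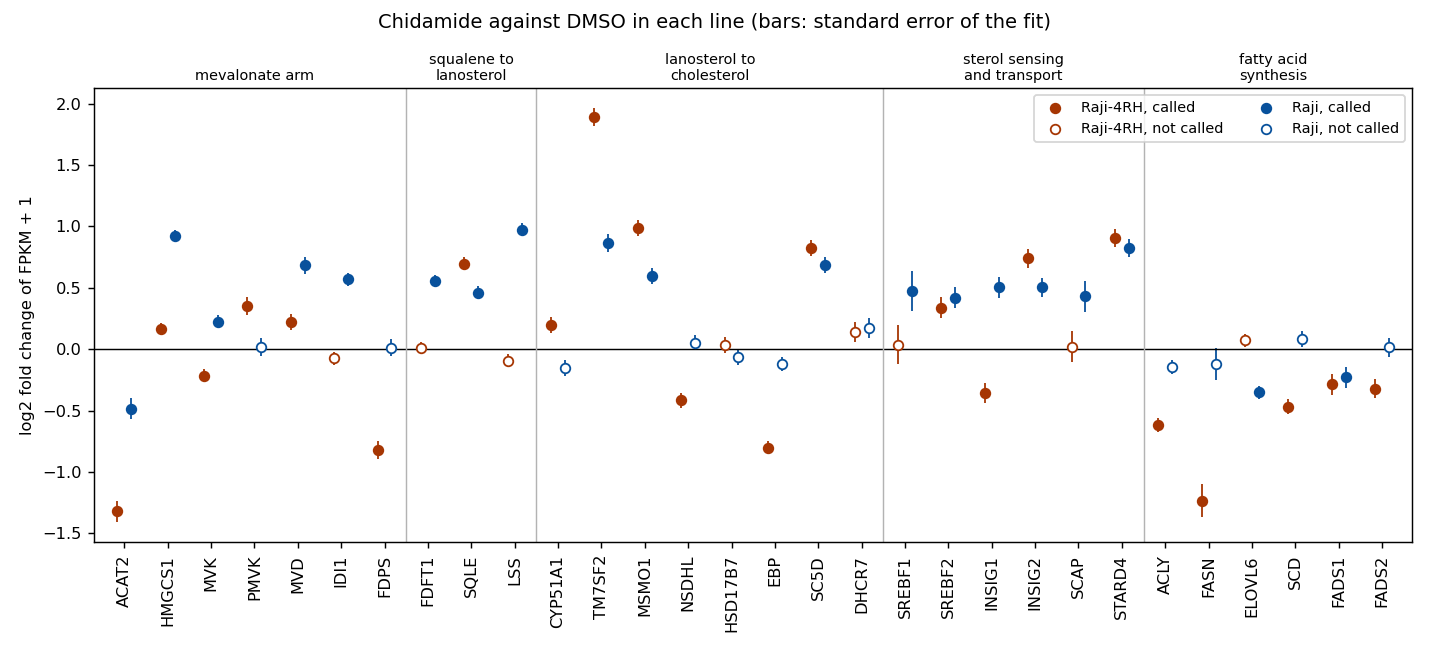
Log2 change of FPKM + 1 under chidamide for each of the 30 genes in Raji-4RH (brown) and Raji (blue), with bars for the SE and open points for genes not called. Blue points lie above 0 from squalene to lanosterol and in sterol sensing, while the brown points of ACAT2, FDPS, EBP and FASN are at -0.8 or lower.

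The comparisons in the 2 lines share no library, but the main fit pools the spread over all 8, so their calls are not independent. Fitted on only the libraries compared, 17 of 29 tested genes were higher and 4 lower in Raji. Over all 9518 genes tested in that fit, 3306 were higher and 3343 lower. In Raji-4RH 9 of 29 were then higher and 10 lower, against 4188 and 3124 of all 10297 tested. In the main fit 9 genes were called higher in both (HMGCS1, MVD, SQLE, TM7SF2, MSMO1, SC5D, SREBF2, INSIG2 and STARD4), which is 81.8% of those higher in Raji-4RH and 56.2% of those higher in Raji. Over all genes tested, 57.9% of those higher in Raji-4RH were also higher in Raji, and 79.8% of those higher in Raji were also higher in Raji-4RH. ACAT2 and FADS1 were lower in both, which is 18.2% of the 11 lower in Raji-4RH and 66.7% of the 3 lower in Raji, against 67.3% and 74.5% over all genes tested. MVK and INSIG1 were higher in Raji and lower in Raji-4RH, though the fall of INSIG1 in Raji-4RH was not called under quantile normalization (-0.11), and no gene went the other way. DHCR7 and HSD17B7, a keto reductase of the ring steps, were called in neither line, although under quantile normalization DHCR7 was called higher in both (0.31 in Raji, 0.32 in Raji-4RH). Of the 9 genes higher in both lines, HMGCS1 (0.0903) and MVD (0.15) were not called in Raji-4RH under median centring. HMGCS1 (0.17) was also not called in Raji-4RH in the fit on only the libraries compared.

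The interaction tested whether the chidamide effect differed between the lines, as the change in Raji-4RH minus the change in Raji. Of the 30 genes 6 had a higher difference and 15 a lower one (20% and 50%), against 27.2% and 21.7% of all genes tested (48.8% in all). The median was -0.42 over the 30 and 0.04 over all genes tested. In the mevalonate arm 6 of 7 genes were on the lower side and PMVK on the higher side, and among the 6 fatty acid genes 4 were lower and ELOVL6 higher. Among sterol sensing and transport genes INSIG1 alone was called.

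The largest differences on the lower side were those of FASN (-1.11 ± 0.19, adjusted p = 0.00177), LSS (-1.07 ± 0.07, adjusted p = 2.28e-05), INSIG1 (-0.86 ± 0.12, adjusted p = 6.43e-04) and ACAT2 (-0.83 ± 0.12, adjusted p = 7.89e-04). LSS and INSIG1 had risen in Raji, where FASN was not called, and ACAT2 had fallen further in Raji-4RH than in Raji. FDPS, HMGCS1, EBP, IDI1, SCD, FDFT1, NSDHL, ACLY, MVD, MVK and FADS2 followed, between -0.83 and -0.34. On the higher side were TM7SF2 (1.02 ± 0.10, adjusted p = 1.14e-04), ELOVL6 (0.42 ± 0.07, adjusted p = 0.00206), MSMO1 (0.39 ± 0.09, adjusted p = 0.00913) and PMVK (0.34 ± 0.10, adjusted p = 0.0272), with CYP51A1 (0.35), at its low level, and SQLE (0.24). PMVK was at 41.1 and 40.3 FPKM in Raji DMSO, 41.4 and 41.2 in Raji chidamide, 21.95 and 21.8 in Raji-4RH DMSO, and 30.7 and 26 in Raji-4RH chidamide. It did not move in Raji beyond the replicates, and in Raji-4RH it started lower and came part of the way up.

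Of these differences, PMVK and SQLE were not called without any 1 of the 4 Raji libraries or of the 2 Raji-4RH DMSO libraries (0.32 to 0.35 and 0.20 to 0.27), and neither was called under median centring (0.30 and 0.20). The difference of CYP51A1 was gone under quantile normalization (0.0189), and was not called without Raji chidamide replicate 1 (0.32). FADS2 was not called without any 1 library other than Raji-4RH chidamide replicate 1 (-0.38 to -0.23), nor under quantile normalization (-0.38), limma voom (-0.49), a pseudocount of 0.1 (-0.45) or no filter on low values (-0.34). Not called were HSD17B7 (0.10), SC5D (0.14), DHCR7 (-0.03), SREBF1 (-0.44), SREBF2 (-0.08), INSIG2 (0.23), SCAP (-0.41), STARD4 (0.08) and FADS1 (-0.06). Without Raji-4RH chidamide replicate 2, SREBF1 (-0.72), SCAP (-0.63) and SREBF2 (-0.21) were called lower, and without replicate 1 INSIG2 (0.32) was called higher. FADS1 was called lower with a pseudocount of 0.1 (-0.91) and with limma voom on the recovered reads (-1.64).

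**Figure D3:**
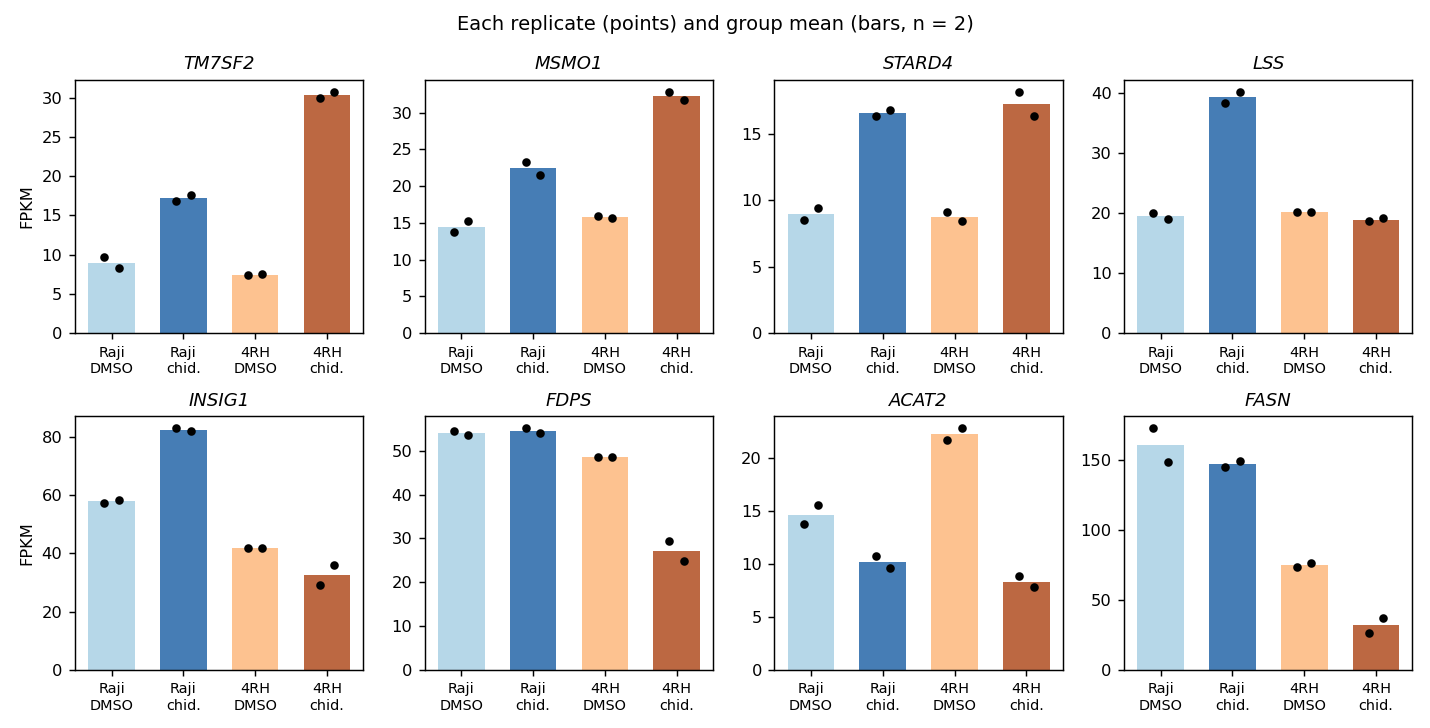
FPKM of 8 of the genes in each library (points) with the mean of each group (bars, n = 2), on axes that start at 0. TM7SF2, MSMO1 and STARD4 are higher in the treated libraries of both lines, LSS is high only in treated Raji, INSIG1 moves in opposite directions (its fall in Raji-4RH was not called under quantile normalization), and FDPS and FASN are lowest in treated Raji-4RH.

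Raji-4RH against Raji in DMSO asked how the lines differed before treatment. Of the 30 genes 8 were higher in Raji-4RH and 14 lower (26.7% and 46.7%), against 41.2% and 32.4% of all genes tested (73.6% in all), and the median was -0.15 against 0.06 over all genes tested. This comparison and those of chidamide share the DMSO libraries, so the values are given side by side only. The largest log2 difference was that of FADS2, which was at 0.239 and 0.252 FPKM in Raji DMSO, 0.247 and 0.270 in Raji chidamide, 4.30 and 4.61 in Raji-4RH DMSO, and 3.68 and 3.07 in Raji-4RH chidamide. Every Raji-4RH library was more than 10-fold above every Raji library, and the DMSO means differed 18.2-fold (log2 difference 2.13 ± 0.08). FADS1 was at 2.33 and 2.67 FPKM in Raji DMSO, 2.22 and 1.77 in Raji chidamide, 0.308 and 0.323 in Raji-4RH DMSO, and 0.0559 and 0.101 in Raji-4RH chidamide. It was lower in every Raji-4RH library than in every Raji library, by 7.94-fold in the DMSO means (log2 difference -1.41 ± 0.08). FADS2 passed the filter on low values only through the Raji-4RH libraries and FADS1 only through the Raji libraries, so each had to differ between the lines to be tested, and their differences are given as a description without p. FADS2 is counted among the genes called higher between the lines and FADS1 among those called lower, in DMSO and under chidamide. These counts therefore include genes that had to differ to be tested.

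FADS1 and FADS2 are neighbours that overlap on opposite strands of chromosome 11 (GRCh38, GENCODE v29). FADS1 lies at chr11:61799625-61829318 on the minus strand and FADS2 at chr11:61792980-61867354 on the plus strand, so that the whole body of FADS1, 29694 bases, lies inside that of FADS2. Other genes share 5.6% of the exon bases of FADS1 and 4.9% of those of FADS2, partly with each other, and reads in these bases cannot be assigned without strand.

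Of the genes of at least 5 FPKM, ACAT2 (0.57), SREBF2 (0.46), EBP (0.45) and FDFT1 (0.39) were the furthest above Raji, and INSIG2, at a lower level, was higher by 0.56. HMGCS1 (0.34) and IDI1 (0.23) were higher by less. FDFT1 was at 45.6 and 45.7 FPKM in Raji DMSO, 67.4 and 67.9 in Raji chidamide, 59.98 and 59.9 in Raji-4RH DMSO, and 59.2 and 61.6 in Raji-4RH chidamide. The 4 Raji-4RH libraries lay within 3 FPKM of each other, between the untreated and the treated Raji pairs. The furthest below Raji were MVD (-1.47 ± 0.07, adjusted p = 2.66e-07), DHCR7 (-1.44 ± 0.08, adjusted p = 9.58e-07), FASN (-1.09 ± 0.13, adjusted p = 1.04e-04) and PMVK (-0.87 ± 0.07, adjusted p = 9.97e-06). DHCR7 was at 52.9 and 47.7 FPKM in Raji DMSO, 55.6 and 57.8 in Raji chidamide, 17.3 and 18.6 in Raji-4RH DMSO, and 18.4 and 21.5 in Raji-4RH chidamide. It fell into 2 levels by line, 2.81-fold apart in DMSO. Its change under chidamide was called in neither line in the main fit, and was called higher in both under quantile normalization. It was also called higher in Raji without either Raji-4RH chidamide library or with only the libraries compared (0.17 each). In Raji-4RH it was called higher without Raji-4RH chidamide replicate 1 (0.25).

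Lower by less in Raji-4RH were SCAP (-0.76), CYP51A1 (-0.58), ELOVL6 (-0.47), MVK (-0.46), INSIG1 (-0.46), HSD17B7 (-0.39), SC5D (-0.37), SQLE (-0.36) and TM7SF2 (-0.24). The TM7SF2 call was lost without Raji DMSO replicate 1 (-0.13) or Raji-4RH DMSO replicate 1 (-0.23) or 2 (-0.24). Not called were FDPS (-0.15), LSS (0.05), MSMO1 (0.12), NSDHL (-0.15), SREBF1 (0.05), STARD4 (-0.03), SCD (-0.07) and ACLY (-0.08). FDPS and NSDHL (both -0.15) were called lower without either Raji-4RH chidamide library, NSDHL also under median centring (-0.20), and MSMO1 was called higher (0.19) without Raji DMSO replicate 2.

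Raji-4RH against Raji under chidamide asked how the treated lines differed. Of the 30 genes 5 were higher in Raji-4RH and 22 lower (16.7% and 73.3%), against 44.3% and 35% of all genes tested (79.3% in all), with a median of -0.40 over the 30 and 0.09 over all genes tested. All 7 genes of the mevalonate arm and all 3 from squalene to lanosterol were lower, though FDFT1 and SQLE turned to values above 0 that were not called (both 0.07) under quantile normalization. Among the lowest against Raji were FASN (-2.20 ± 0.13, adjusted p = 1.01e-06), which was 4.65-fold lower by its means, MVD (-1.93 ± 0.07, adjusted p = 4.51e-08), DHCR7 (-1.47 ± 0.08, adjusted p = 6.66e-07) and INSIG1 (-1.32 ± 0.08, adjusted p = 1.42e-06). FADS1, at its low level and past the filter only through Raji, was at -1.47. SCAP, LSS and FDPS, at -1.17, -1.02 and -0.99, came next. MVK (-0.90), SCD (-0.62), NSDHL (-0.62), ACLY (-0.56) and PMVK (-0.53) were lower by about 0.5 to 0.9, and HMGCS1, IDI1, HSD17B7, ACAT2, SC5D, EBP, CYP51A1, FDFT1 and SQLE by 0.42 or less.

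The genes higher in Raji-4RH under chidamide were INSIG2 (0.80), TM7SF2 (0.79 ± 0.07, adjusted p = 1.22e-05), MSMO1 (0.51 ± 0.07, adjusted p = 1.16e-04), SREBF2 (0.38 ± 0.08, adjusted p = 0.00285) and FADS2 (1.79), which passed the filter only through Raji-4RH. STARD4 (0.06), ELOVL6 (-0.05) and SREBF1 (-0.38) were not called, and SREBF1 was called lower (-0.66) without Raji-4RH chidamide replicate 2 and under median centring (-0.46). The calls of ACAT2 (-0.19 without Raji chidamide replicate 1, -0.17 without Raji-4RH chidamide replicate 2), CYP51A1 (-0.20 without Raji chidamide replicate 2) and FDFT1 (-0.17 and -0.16 without Raji chidamide replicate 1 and 2) were lost without any 1 of the libraries named. SQLE was not called without any 1 library other than Raji-4RH chidamide replicate 1 (-0.16 to -0.10).

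**Figure D4:**
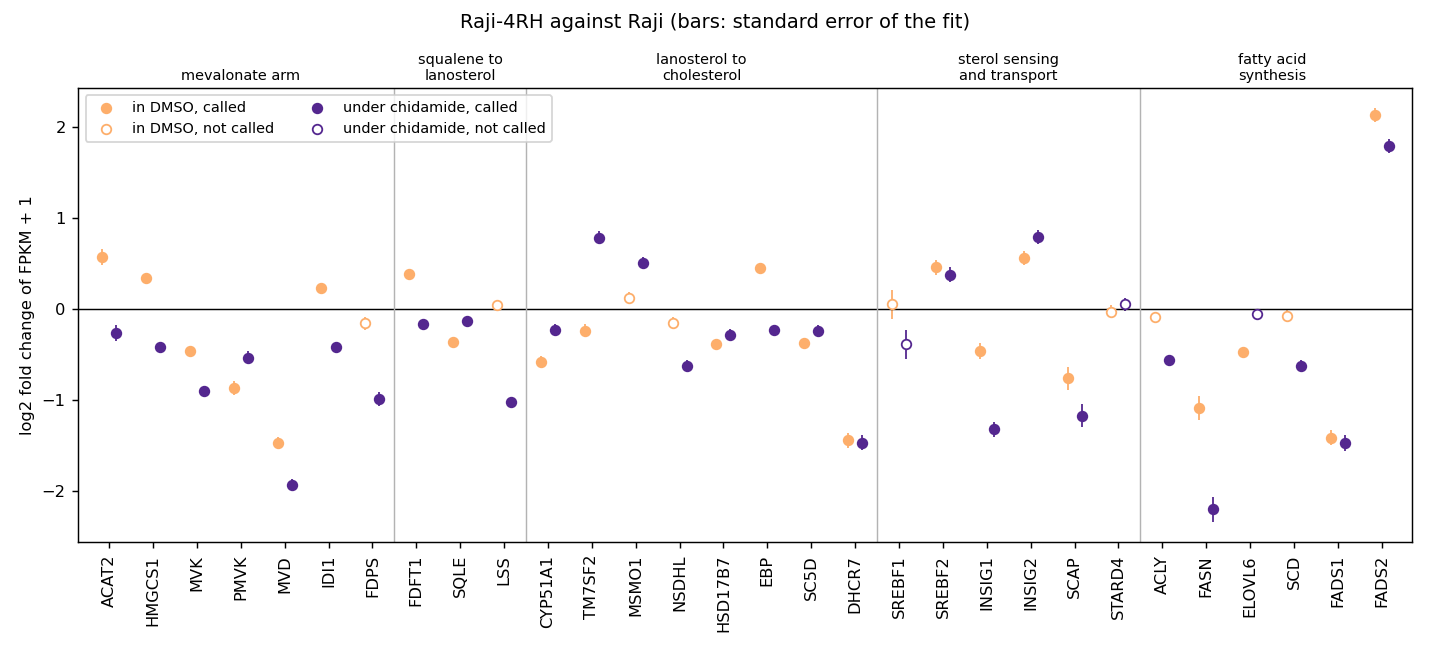
Log2 difference of FPKM + 1 between Raji-4RH and Raji in DMSO (orange) and under chidamide (purple), with bars for the SE and open points for genes not called. FADS2 stands at the top and FADS1 far below 0 in both settings, and most purple points of the synthesis steps lie lower than the orange ones.

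Genes beside the pathway were taken from 5 lists. Of sterol transport and efflux, 11 of 12 genes were tested, and in Raji-4RH 6 were higher and 4 lower under chidamide (in Raji 4 and 2). For these and the other list counts, the shares over all genes tested were 43.3% higher and 31.6% lower in Raji-4RH and 31.5% and 28.5% in Raji, and nothing particular to a list is read from its count. LIPA, the lysosomal acid lipase that frees cholesterol from its esters, was at 8.80 and 9.07 FPKM in Raji DMSO, 23.4 and 22.8 in Raji chidamide, 3.81 and 3.34 in Raji-4RH DMSO, and 10.9 and 11.2 in Raji-4RH chidamide. It was higher in the treated libraries of both lines, with log2 changes of 1.40 in Raji-4RH and 1.28 in Raji. MYLIP, a ubiquitin ligase for lipoprotein receptors, was at 19.1 and 19.4 FPKM in Raji DMSO, 23.8 and 25.4 in Raji chidamide, 4.22 and 4.19 in Raji-4RH DMSO, and 13.9 and 11.98 in Raji-4RH chidamide (log2 change in Raji-4RH 1.42 ± 0.07, adjusted p = 5.52e-07). Its Raji-4RH libraries were below all Raji libraries also when treated. TMEM97, a sterol-regulated membrane protein that binds NPC1, fell by 1.39 on the log2 scale in Raji-4RH and by 0.51 in Raji, and SOAT1, which esterifies cholesterol, fell by 0.34 in Raji-4RH.

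Of SREBP processing and LXR genes, all 10 were tested, with 3 higher and 2 lower in Raji-4RH and 2 higher and 6 lower in Raji. LPIN1, a phosphatidate phosphatase, was at 0.734 and 0.820 FPKM in Raji DMSO, 6.71 and 6.68 in Raji chidamide, 13.5 and 12.8 in Raji-4RH DMSO, and 29.3 and 30.2 in Raji-4RH chidamide. It was higher in treated libraries of both lines, with log2 changes of 1.12 in Raji-4RH and 2.11 in Raji. RNF139, a ubiquitin ligase, rose by 0.24 in Raji-4RH, PPARGC1B, a coactivator of SREBP, fell by 0.70, and NR1H2, which encodes an LXR receptor, fell by 0.23. In the isoprenoid branch, which leads to prenyl groups, ubiquinone and dolichol, 12 of 13 were tested, with 2 higher and 6 lower in Raji-4RH and 2 higher and 4 lower in Raji. ICMT, which methylates prenylated proteins, fell by 1.15 in Raji-4RH and by 0.79 in Raji, and PDSS1, which makes the ubiquinone tail, fell by 1.12 and 0.20. FNTA and PGGT1B, subunits of prenyl transferases, rose by 0.28 and 0.27 in Raji-4RH, while in Raji FNTA fell by 0.21 and PGGT1B was not called (0.02).

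Among other genes of fatty acid synthesis and activation 16 of 21 were tested, with 9 higher and 5 lower in Raji-4RH and 8 higher and 6 lower in Raji. SCD5, a second stearoyl-CoA desaturase, was at 1.32 and 1.04 FPKM in Raji DMSO, 2.11 and 2.36 in Raji chidamide, 3.26 and 3.23 in Raji-4RH DMSO, and 7.63 and 8.69 in Raji-4RH chidamide. It rose in both lines (log2 changes 1.11 and 0.57), from a level far below that of SCD. MID1IP1, an activator of acetyl-CoA carboxylase, rose by 0.70 in Raji-4RH and fell by 0.25 in Raji, and the difference was called (interaction 0.95 ± 0.10, adjusted p = 1.81e-04). ACSL5, an acyl-CoA synthetase, fell by 1.16 in Raji-4RH and 0.55 in Raji, and HACD3, a dehydratase of fatty acid elongation, by 0.96 and 0.67.

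All 13 genes of fatty acid oxidation were tested, with 5 higher and 1 lower in Raji-4RH and 4 higher and 2 lower in Raji. CPT1A, which brings fatty acids into mitochondria, was at 0.0540 and 0.0151 FPKM in Raji DMSO, 0.0370 and 0.0366 in Raji chidamide, 1.85 and 2.01 in Raji-4RH DMSO, and 4.28 and 4.44 in Raji-4RH chidamide. It was near 0 in all Raji libraries, passed the filter only through Raji-4RH, and rose by 0.87 within that line. ACADVL, an acyl-CoA dehydrogenase, rose by 0.57 in Raji-4RH and 0.25 in Raji, and the fall in Raji-4RH was that of ECI1, an enoyl-CoA isomerase (-0.96). The median log2 changes of the 5 lists in Raji-4RH were 0.30, 0.02, -0.14, 0.34 and 0.18 in the order given, against 0.03 for the 30 synthesis genes and 0.09 for all genes tested.

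**Figure D5:**
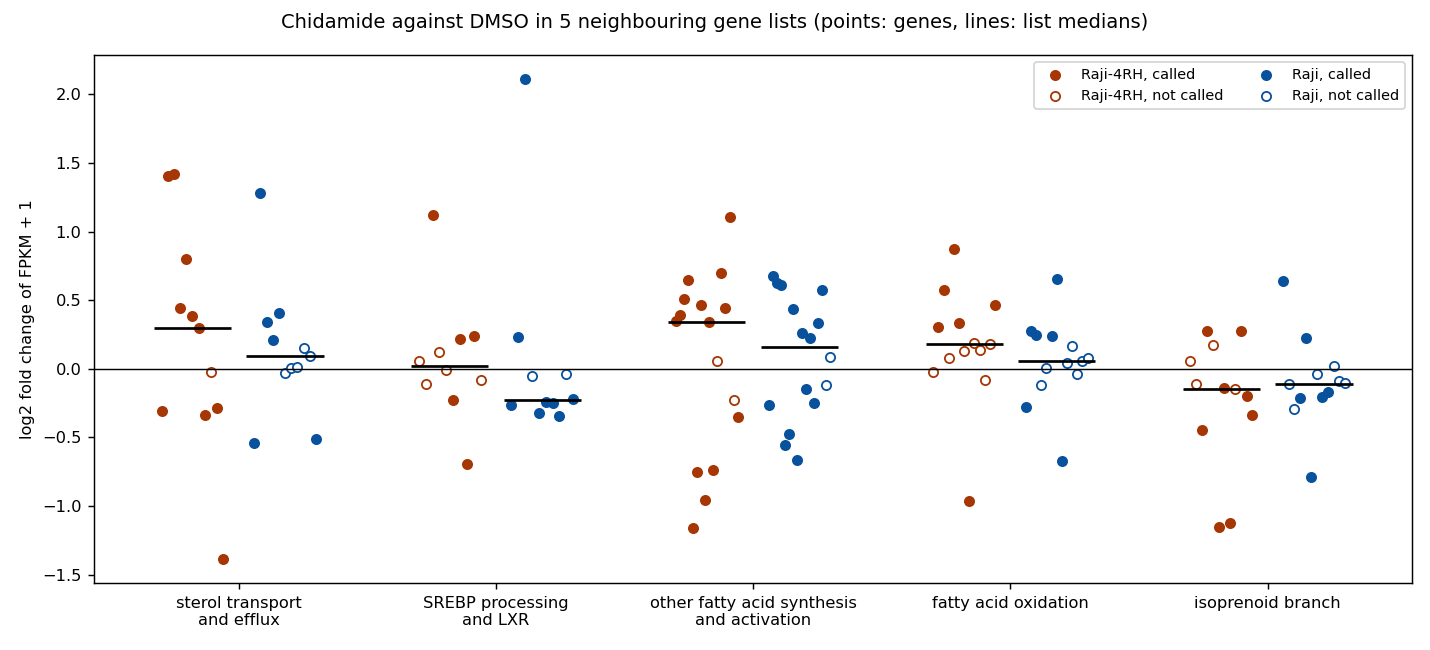
Log2 change of FPKM + 1 under chidamide for the tested genes of 5 neighbouring lists in Raji-4RH (brown) and Raji (blue), with open points for genes not called and a line at each median. Genes of every list lie on both sides of 0, and LPIN1 in Raji (2.11) is the highest point.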

How the data were processed

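RNA-seq was analysed from 8 libraries, 2 in each of 4 groups of Raji and Raji-4RH cells under DMSO or 3 μM chidamide for 24 h. The authors deposited 1 table of FPKM per gene, and the submitters' processing notes list HISAT2 2.0.5, SAMtools 1.7, HTSeq 0.9.1, DESeq2 1.22.2 and hg38/GRCh38. The annotation release and the strand setting of the counting were not given in the sources used here. Of 63967 labelled rows, 63305 hold their own values and the last 662 repeat the reads of the first. Values were taken from below their labels by row distances given for 12 blocks of the table, and each FPKM was rescaled by the ratio of the gene lengths on the 2 rows. Labels outside those blocks, ACACA among them, were not analysed here. Groups were taken from the sample labels.

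Values were tested as log2(FPKM + 1) with limma 3.58.1 (trend) in R 4.3.3, with 1 coefficient per group and no covariates, over the 10710 genes that reached 1 FPKM in 2 or more libraries, and were adjusted by the Benjamini-Hochberg method. The script was checked on simulated data with the same spread in all groups and few changed genes. These data differ in both respects, so that check does not measure error rates here. Library totals were between 13991697 and 21193441 reads, and intervals were not computed because 2 libraries per group limit the precision more than the reads do for most genes. The 31 genes, their roles and the 5 neighbouring lists were chosen with earlier results of these data known, and the grouping by role was made after the values had been seen. Named in full were the 4 called genes with the largest change in each direction, provided that their mean reached 5 FPKM and that the groups did not overlap, and in each neighbouring list the 2 largest called changes in each direction in Raji-4RH. FADS1, FADS2, INSIG2 and CYP51A1 fall below that mean and were described after their values had been seen, as were the genes whose sequence is printed. Gene start sequences came from RefSeq (GRCh38.p14) and exon sharing from GENCODE v29. Other scalings, filters, pseudocounts, fits and row placements, and each library left out in turn, were tried as alternatives.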

Additional observations from a re-analysis of the deposited data

Results flagged for a closer look

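The chidamide effect differed between the lines, by the limma interaction test at an adjusted p under 0.05, for 21 of the 30 genes (70%), against 48.8% of all genes tested. Each value is the log2 change of FPKM + 1 in Raji-4RH minus that in Raji, with 2 libraries in each of the 4 groups. Lower in Raji-4RH than in Raji were the changes of FASN (-1.11), LSS (-1.07), INSIG1 (-0.86), ACAT2 (-0.83), FDPS (-0.83), HMGCS1 (-0.76), EBP (-0.68), IDI1 (-0.64), SCD (-0.55), FDFT1 (-0.55), ACLY (-0.47), NSDHL (-0.47), MVD (-0.46), MVK (-0.44) and FADS2 (-0.34). Higher in Raji-4RH were those of TM7SF2 (1.02), ELOVL6 (0.42), MSMO1 (0.39), CYP51A1 (0.35), PMVK (0.34) and SQLE (0.24). Among the 15 on the lower side, INSIG1 and MVK were called in opposite directions in the 2 lines, ACAT2 was called lower in both, HMGCS1 and MVD were called higher in both, LSS, IDI1 and FDFT1 were called in Raji alone, and FASN, FDPS, EBP, SCD, ACLY, NSDHL and FADS2 in Raji-4RH alone. Among the 6 on the higher side, TM7SF2, MSMO1 and SQLE were called higher in both lines, PMVK and CYP51A1 were called higher in Raji-4RH alone and ELOVL6 was called lower in Raji alone. The difference of CYP51A1 was gone under quantile normalization (0.0189), that of FADS2 was not called under quantile normalization, limma voom, a pseudocount of 0.1 or no filter, those of PMVK and SQLE were not called under median centring, and all 4 were lost when single libraries were left out. ACAT2, FDPS, HMGCS1, IDI1 and CYP51A1 share exon bases with other genes.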

How the results depend on the processing

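With 1 library left out at a time, the number of the 30 genes called lay between 15 and 22 for chidamide in Raji, 18 and 24 in Raji-4RH, 17 and 23 for the difference between them, 21 and 24 for the lines in DMSO and 24 and 27 for the lines under chidamide. These ranges show how stable the counts were and are not a result about these genes. Only SREBF1 (-0.24 to 0.31) and SCAP (-0.20 to 0.24) in Raji-4RH under chidamide turned to the opposite call. Under the other scalings, filters, pseudocount, samples in the fit and limma voom the totals called in either direction stayed within 1.5 times of those reported, but under median centring the split was 16 higher and 6 lower in Raji (against 16 and 3), 8 and 13 in Raji-4RH (against 11 and 11) and 4 and 15 for the difference (against 6 and 15). Under median centring, of all 10710 genes tested 3036 were higher and 3421 lower in Raji. For Raji-4RH those counts were 4141 and 3908, and for the difference 2657 and 2602. With an absolute log2 change of at least 1 also required, 3 genes were called in Raji-4RH, 0 in Raji, 3 for the difference, 5 for the lines in DMSO and 8 under chidamide. The share over all genes at that size is not given here, so nothing particular to these genes is read from it. Restricted to the 13 genes on their own row, 9, 11, 9, 10 and 13 were called in the same order. Of all 4331 genes tested on their own row, 1819 were higher and 1507 lower in Raji-4RH, and 1387 and 1315 in Raji. For the difference the counts were 1132 and 1046, in DMSO 1787 and 1471, and under chidamide 1860 and 1603. Quantile normalization turned IDI1 (0.19) and CYP51A1 (-0.30) in Raji-4RH under chidamide, and FDFT1 (0.0737) and SQLE (0.0666) between the lines under chidamide, and under all alternatives together 33 more changes of sign were between values neither of which passed the test.

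Values taken from the row of the label, as deposited, put another gene's values beside 17 of the 30 labels. Then 13 genes of 25 tested were called for the difference. Over all 17341 labels tested that way, 3568 were higher and 2270 lower. The sign turned in Raji-4RH for FDPS (0.0677), TM7SF2 (-0.0397) and HSD17B7 (-1.004), in Raji for LSS (-0.48), TM7SF2 (-0.22), SREBF2 (-0.0915) and FADS1 (0.14), and in the difference for MVD (1.41), LSS (0.41), HSD17B7 (-0.75) and FASN (0.0910). Between the lines in DMSO it turned for PMVK (1.36), TM7SF2 (0.00296), DHCR7 (0.21), SREBF2 (-1.25), ELOVL6 (0.20), FADS1 (0.33) and ACLY (1.96), and under chidamide for PMVK (1.62), LSS (0.62), DHCR7 (0.29), SREBF2 (-0.94), ELOVL6 (0.44) and ACLY (1.41).

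The replicate numbers did not pair the libraries (correlations of the replicate differences between groups from -0.279 to 0.166). With the number as a replicate block, 22, 18, 20, 22 and 26 genes were called in Raji-4RH, in Raji, for the difference, in DMSO and under chidamide. Of all 10710 genes tested, the block gave 4583 higher and 3303 lower in Raji-4RH, and 3261 and 2922 in Raji. For the difference it gave 2729 and 2186, in DMSO 4338 and 3410, and under chidamide 4702 and 3695. A crossed pairing, with the numbers of Raji DMSO swapped and chosen after seeing the data, called 23, 21, 22, 23 and 28. Over all genes tested it gave 4731 higher and 3459 lower in Raji-4RH, and 3443 and 3144 in Raji. For the difference it gave 3030 and 2479, in DMSO 4477 and 3560, and under chidamide 4797 and 3807. The edgeR TMM scaling and the edgeR quasi-likelihood test were not run, because the deposited unit is FPKM. The fit on only the libraries compared gives no separate value for the difference, which uses all 8. Depth limits FADS1 most, at 8 reads in its lowest library.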
